A study of Arabidopsis thaliana with 2 samples.

Results

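Among nuclear genes of Arabidopsis thaliana rosette leaves sampled after high light, 62 transcripts read 1.5- to 2-fold higher in the double knockout KO-HsfA1d/A1e than in the wild type. They were chosen from these readings themselves. Each deposited intensity was taken as log2(intensity + 16), the difference is mutant minus wild type, and the mean of both arrays had to reach the median over all probe sets, 8.44, which corresponds to an intensity of 332. A probe set, the group of oligonucleotides on the array that reports 1 transcript, was kept where it names 1 nuclear gene and its difference was at or above 0.585 and under 1. The 62 came from 16541 probe sets in all, of which 8271 reached the median and 4146 of those name 1 nuclear gene, so the share was 1.5%. Over all 8271 probe sets past the same filter, named or not, the share was 1.44% (119 probe sets). Because the rule used these differences, they are given as a description, and no test is attached to them.

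Each genotype has 1 array, hybridised with biotin-labelled RNA from Columbia plants 2 weeks old. Both had grown on MS medium at 100 µE m-2 s-1 and had received 400 µE m-2 s-1 at 25°C for 30 min, so the light treatment is common to the pair. The mutant lacks HsfA1d and HsfA1e, while its alleles, its number of lines and the plants pooled per RNA sample were not given in the sources used here. With 1 array per genotype there is no SD, no p-value and no way to ask whether the genotypes overlap, so genotype and the single preparation of each RNA cannot be told apart.

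Heat shock factors are transcription factors that bind heat shock elements, and the class A1 factors of Arabidopsis sit at the top of the heat stress response. They activate genes for heat shock proteins and for secondary factors that extend the response. The transcripts described here stand on the other side, with higher readings where these activators are missing. In leaf RNA, more transcript per cell and more cells that make the transcript cannot be told apart.

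The arrays had median intensities of 334 (wild type) and 332 (mutant). The median difference of the 4146 nuclear probe sets was 0.04 log2 units. No probe set named HsfA1d or HsfA1e alone, so the genotype could not be checked on its own targets. Leaf markers were bright, with Rubisco activase (RCA) at 22929 in wild-type leaves against 25125 in mutant leaves and LHCB4.1, a light-harvesting protein, at 14279 against 13945. Of 25 marker genes in 10 tissue groups, 6 were measured, in 4 groups. The only measured root marker, the beta-glucosidase PYK10, read 2555 against 3758 (0.55), the guard cell marker FMA read 339.7 against 316 (-0.10) and the cell division marker AUR1 read 156 against 166 (0.08), while no epidermal, vascular, trichome, meristem, flower or seed marker was measured.

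The differences of the 62 transcripts ran from 0.59 to 0.90, with a median of 0.68, which is a ratio of deposited intensities of 1.61. They crowded toward the lower edge. From 0.585 to under 0.65 there were 26, from 0.65 to under 0.75 there were 20, and 16 lay above that. No member came closer to 2-fold than the 0.90 of AT3G15310. Wild-type intensities ran from 249 to 4687, with a median of 489, and mutant intensities from 425 to 7315, with a median of 797. In the wild type 14 of the 62 lay under the intensity of the filter, and in the mutant 0 did. Those 14 were thus admitted through their mutant value. They include AT3G15310, with the largest difference, and UPB1, AT1G26920, AT1G52100, AT5G17780, AT5G02440 and AT1G10850. The others are AT3G60520, AT5G05750, AT1G10580, AT5G08340, AT1G74780, AT1G05060 and AT1G58150.

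**Figure D1:**
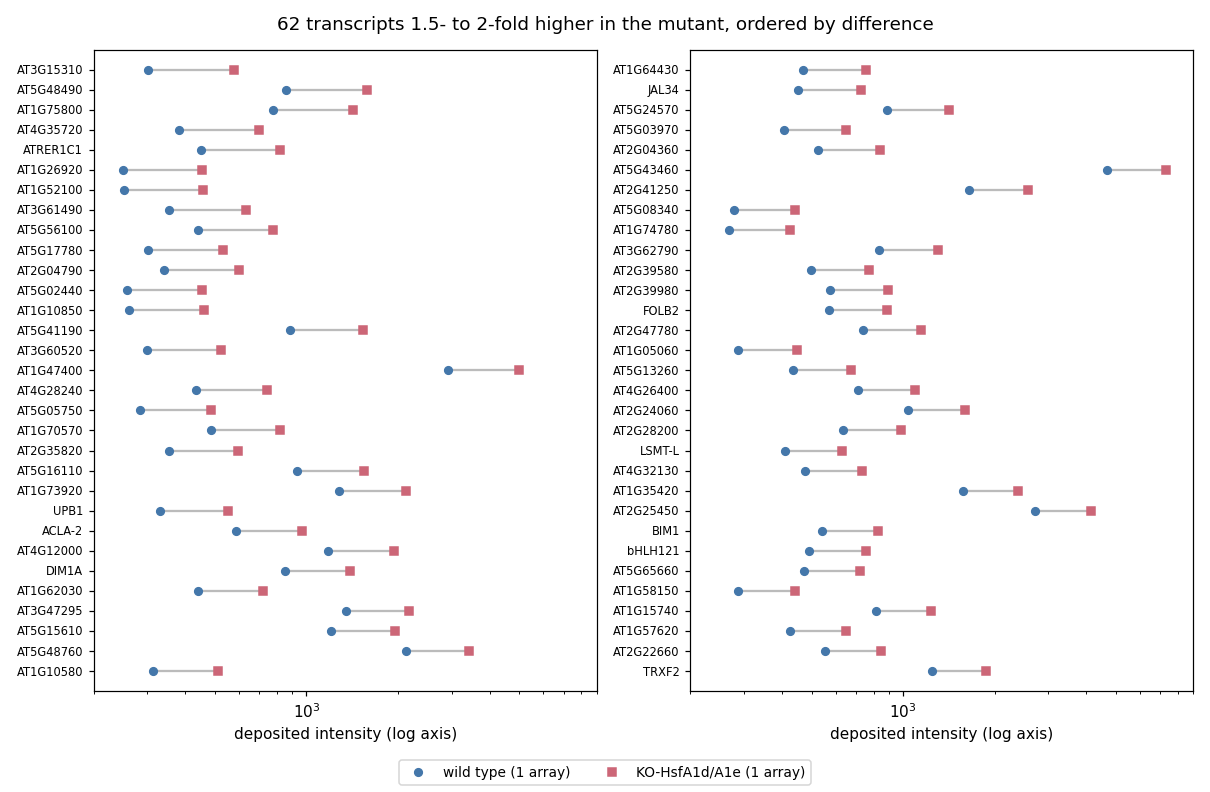
Deposited intensity (log axis) of the 62 transcripts on the wild-type array (circles) and the KO-HsfA1d/A1e array (squares), 1 array each, ordered by the log2 difference from AT3G15310 (0.90) to TRXF2 (0.59). The grey lines join both readings of a transcript and are of similar length because the rule fixed the difference, while the readings themselves span 249 to 7315.

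Just under the lower edge stood AT3G26510 at 0.58, AT4G01870 at 0.58 and AT5G14460 at 0.58, and just over it TRXF2, AT2G22660 and AT1G57620, each at 0.59. The lower edge thus runs through a dense stretch of near-equal differences. At the upper edge the gap was wider. AT1G75800 (0.86), AT5G48490 (0.88) and AT3G15310 (0.90) lay inside, and AT2G04050 (1.02), AT4G16260 (1.07) and the osmotin gene OSM34 (1.21) lay outside. On the filter of intensity, PUB49 (247 against 411 (0.70)), AT5G55580 (255 against 400.2 (0.62)) and AT1G49470 (267 against 411 (0.59)) were left out, where each bracket holds the log2 difference. The dimmest transcripts let in were AT1G74780, AT1G26920 and AT1G52100. Under the filter 269 more nuclear probe sets lay in the same range of differences.

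Scatter within a gene can be seen on these arrays only for genes with more than 1 probe set. For the 13 such nuclear genes past the filter the differences had an SD of 0.20 log2 units around the gene's mean, and the widest gap within a gene was 0.56. None of the 62 (0 genes) had a second probe set of its own, so no member had a repeat reading on the same arrays. The distance from the lower edge to 0, 0.585, is under 3 such SDs and leaves out the spread between plants. The SD of all nuclear differences, given by signal below, was larger, from 0.30 to 0.40, so by that spread the edge lies nearer to 0.

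**Figure D2:**
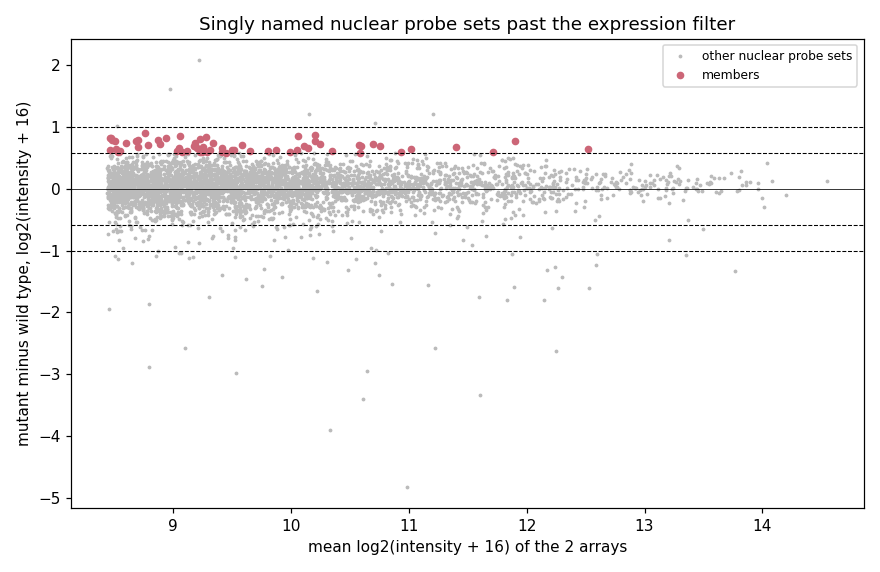
Mutant minus wild-type difference (log2) against the mean log2(intensity + 16) of both arrays for the 4146 singly named nuclear probe sets past the filter, with the 62 members in red and dashed lines at 1.5- and 2-fold in each direction. The members spread along the whole range of signal up to 12.5, the upper 2-fold line has 6 points on or above it, and the lower one has 53 on or below it.

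On the lower side the range of 1.5- to 2-fold held 66 nuclear probe sets, 1.59% of the 4146, next to the 62 on the higher side. The counts stayed near each other after quantile normalization (61 higher against 67 lower) and with a pseudocount of 1 (72 against 70). That balance was lost in other settings, with 48 higher against 77 lower after median centring. It was 45 against 77 after loess and 45 against 58 with a pseudocount of 64. Beyond 2-fold the sides parted, with 6 higher and 53 lower. The central 95% of nuclear differences lay between -0.63 and 0.53, so the members belong to the upper tail. Of all 4146, 57.5% had the higher value in the mutant.

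By signal, the larger shares of members lay among the dimmer probe sets. When the 4146 were cut into 4 bins of near-equal size by mean log2 value, the dimmest bin held 17 members (1.64%), the next 22 (2.12%), the third 12 (1.16%) and the brightest 11 (1.06%). The SD of all differences was 0.30, 0.31, 0.30 and 0.40 in these bins, in the same order. The lower range held 19, 17, 17 and 13 probe sets in them. By chromosome, members made up 1.71% of the nuclear probe sets of chromosome 1 (18 members), 2.24% of chromosome 2 (14), 0.807% of chromosome 3 (7), 0.814% of chromosome 4 (5) and 1.82% of chromosome 5 (18).

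Of the 62, 61 are annotated as protein coding, and AT3G15310, the member with the largest difference, is annotated as a pseudogene. Its intensity was 303 in wild-type leaves and 578 in the mutant, a ratio of 1.91. The annotation gives 12 members a name beyond the locus and leaves 50 with the locus alone. Roles below are background from general knowledge of the gene or its protein family, and loci without a clause are given no role.

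Transcription regulators among the members included 3 of 1 family. Basic helix-loop-helix (bHLH) proteins bind E-box DNA as dimers and form one of the large families of plant regulators. UPB1, which represses peroxidase genes in roots, read 330.0 in wild-type leaves and 552 in mutant leaves (0.72 on the log2 scale). BIM1, a partner of the brassinosteroid factor BES1, read 539 against 826 (0.60). For bHLH121, which acts upstream in the response to iron shortage, the readings were 492 against 753 (0.60). AT2G28200, a zinc finger protein of the C2H2 type, stood at 636 against 981 (0.61), in the lower part of the range like the latter pair. UPB1 was the only 1 of these 4 above 0.65. Its wild-type reading lay under the filter, and it is among the 14 members admitted through their mutant value.

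The bHLH genes known by name in the annotation were then read together, a choice made after these values were seen. That list had 10 measured genes, of which 8 passed the filter, and 3 of these 8 are members, whose direction the rule fixed. The bHLH genes that the annotation leaves with a locus alone can be missing, so the list does not stand for the family. The 5 others were bHLH34 (613 against 867 (0.49)), ILR3 (1624 against 2224 (0.45)), PYE (753 against 893 (0.24)), bHLH104 (979.9 against 1089.8 (0.15)) and bHLH115 (899.9 against 944 (0.07)). All 5 read higher in the mutant under the scalings and pseudocounts tried, with a median of 0.24, and none of them (0) reached the lower edge. Of all 4146 nuclear probe sets past the filter, 57.5% read higher as reported. After median centring and loess, 50.9% and 50.6% of all 4133 nuclear genes did. Under the filter, BHLH101 read 44.1 against 123 (1.21) and AT1G22490 read 54.2 against 42.8 (-0.26), so these dim relatives stood on opposite sides of 0.

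Many of these bHLH proteins belong to the iron deficiency response. In Arabidopsis, bHLH121, bHLH34, ILR3, bHLH104 and bHLH115 act as dimers at its top, and they switch on PYE and BHLH101 and small peptides that raise iron uptake. AT1G47400, which encodes such a peptide, was a member with bright signal at 2913 in wild-type leaves and 4987 in mutant leaves, a ratio of 1.71. Of 31 loci of this response, listed after the values were seen, 10 were measured, 7 passed the filter, and 2 of the 7 are members. The 5 that are no members are the same 5 bHLH genes, so this list adds no other gene past the filter to them. Of the 3 under the filter, BHLH101 was higher, while AT1G18910 read 141 against 103 (-0.40) and AT3G13610, the coumarin gene F6'H1, read 225 against 32.3 (-2.32). The response is thus not of 1 sign among its measured genes, and its transporters, reductases and ferritins were not analysed here.

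**Figure D3:**
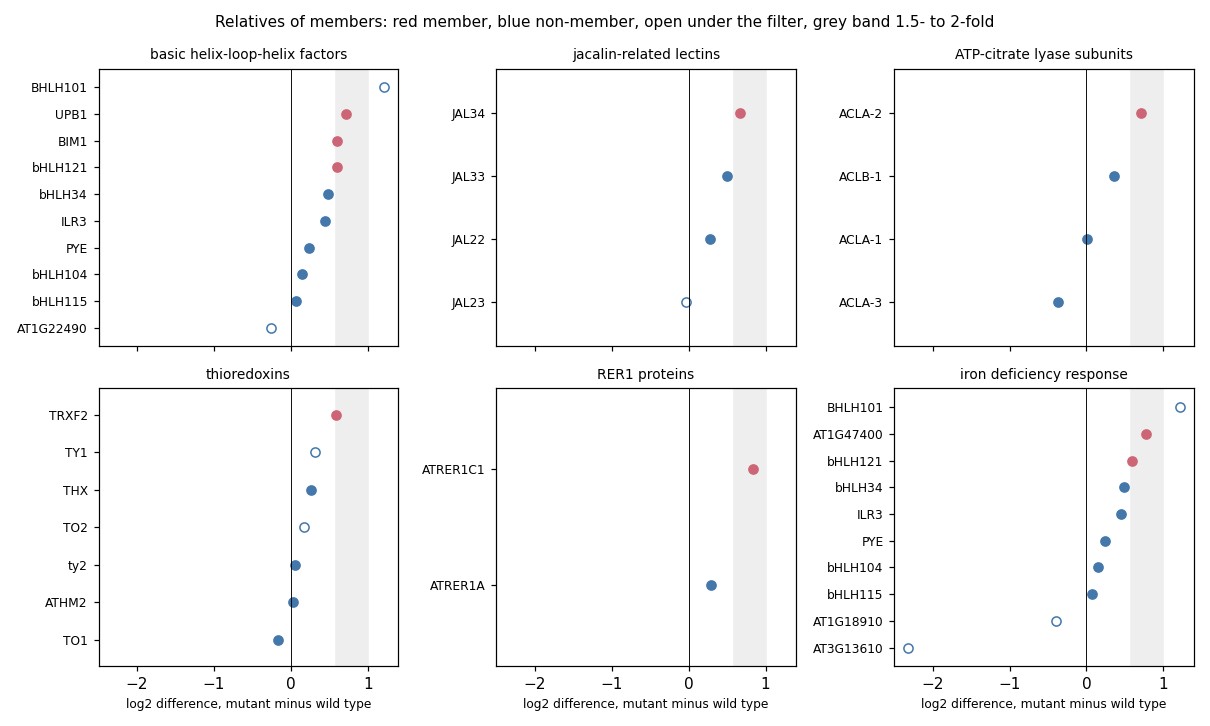
Mutant minus wild-type difference (log2) of measured relatives of 5 members' families and of iron deficiency response genes, 1 panel each, with members in red, other genes in blue and genes under the filter as open circles. The grey band marks 1.5- to 2-fold, and in the ATP-citrate lyase panel ACLA-2 (0.71) is followed by ACLB-1 (0.36), ACLA-1 (0.01) and ACLA-3 (-0.37).

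Some members act in making ribosomes or in translation. Ribosomal RNA is cut and modified in the nucleolus and cytoplasm before it enters the mature subunits. AT5G41190, annotated as NOB1, encodes the nuclease that makes the last cut of the small subunit's RNA, and it read 883 in wild-type leaves and 1531 in the mutant (0.78). DIM1A, annotated as an adenosine dimethyl transferase, methylates the same RNA and read 850.2 against 1389.8 (0.70). AT5G48760, of the L13 family of ribosomal proteins, was among the brightest members at 2123 against 3414 (0.68). In the chloroplast, AT2G24060, a translation initiation factor of the bacterial IF3 type, read 1038 against 1596 (0.61). The 3 of the cytosolic ribosome had differences of 0.78, 0.70 and 0.68, and the plastid factor stood lower. The rule held all of them within a narrow range, so their nearness is no result. The keyword list for ribosomal proteins found 0 probe sets, and other ribosomal genes were not read as a group.

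Enzymes of primary metabolism formed another group. ACLA-2, a subunit of the cytosolic ATP-citrate lyase that supplies acetyl-CoA, read 585 against 971 (0.71). Its relatives did not share that reading. ACLA-1 read 4468 against 4492 (0.01), ACLA-3 read 1979.7 against 1529 (-0.37) and the partner subunit ACLB-1 read 1574 against 2026 (0.36). After median centring and loess ACLA-1 turned to the lower side, while ACLA-2 stayed in the range in all 5 settings. FOLB2, a dihydroneopterin aldolase of folate synthesis, read 568 against 883 (0.62), and AT1G70570, of the anthranilate phosphoribosyltransferase type, read 485 against 819 (0.74). AT3G62790, a subunit of mitochondrial complex I, read 835 against 1306 (0.63). These enzymes lay between 0.62 and 0.74.

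Among the members was TRXF2, a chloroplast thioredoxin of the f type that reduces and so activates enzymes of the Calvin cycle. It read 1239.5 in wild-type leaves and 1870.3 in the mutant, and its difference of 0.59 was the smallest of the 62. LSMT-L, annotated as a lysine methyltransferase that resembles the Rubisco one, read 408 against 630.3 (0.61). Other thioredoxins past the filter were closer to 0. THX read 4160.3 against 4978 (0.26), ty2 read 2094 against 2182 (0.06), ATHM2 read 6369 against 6493 (0.03) and the mitochondrial TO1 read 467 against 413 (-0.17). The sign of ATHM2 turned after median centring and loess.

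Secretory pathway and membrane proteins included the member with the largest difference among those with a gene symbol. ATRER1C1, of the RER1 family that returns proteins from the Golgi to the endoplasmic reticulum, read 449 in wild-type leaves and 816 in the mutant (0.84). Its relative ATRER1A read 863 against 1060.0 (0.29). AT1G57620, annotated as CYB and of the p24 family of cargo receptors, read 423 against 646 (0.59), at the lower edge. AT4G12000, of the SNARE-associated Golgi protein family, read 1180.4 against 1944 (0.71). AT1G74780, of the major facilitator family of transporters, read 268 against 425 (0.64) and was the dimmest member. AT2G47780, of a small family that coats lipid droplets, read 739 against 1146 (0.62). The group thus covered nearly the whole range, from 0.59 to 0.84.

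Several members belong to families linked with defence. AT5G48490, a lipid transfer protein related to the systemic resistance protein DIR1, read 857 in wild-type leaves and 1586 in the mutant (0.88). AT1G75800, of the thaumatin family of pathogenesis-related proteins, read 776 against 1420.1 (0.86). These had the largest differences after the pseudogene. AT5G43460, of a family named for hypersensitive lesions, had the brightest signal of all 62 at 4687 against 7315 (0.64). AT2G25450, a dioxygenase that modifies aliphatic glucosinolates, read 2717 against 4129 (0.60). AT2G39980, of the HXXXD family of acyltransferases, is given no link with defence here and read 576 against 895 (0.62). By the keyword list for defence, fixed on annotated names, 4 probe sets passed the filter, of which 0 were members, 1 was at least 2-fold higher and 1 at least 1.5-fold lower, with a median difference of -0.30. Of those 4, 1 had the higher reading in the mutant, against 57.5% of all 4146 nuclear probe sets past the filter. Among the 4146, 62 were members and 6 at least 2-fold higher, while 66 were 1.5- to 2-fold lower and 53 at least 2-fold lower. A list of 4 is too small to read as a result on defence. The loci described above carry no such name in the annotation and so could not be on that list.

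Jacalin-related lectins are sugar-binding proteins, some of which gather with the beta-glucosidase PYK10 when tissue is damaged. JAL34 read 453 against 729 (0.67), and AT1G52100, of the same family by background knowledge, read 251 against 456 (0.82). The other annotated lectins past the filter, JAL33 (566 against 806 (0.50)) and JAL22 (752 against 911 (0.27)), also read higher in the mutant in every scaling and pseudocount tried, while JAL23, under the filter, read 204 against 199.7 (-0.03). PYK10, the only measured root marker, differed by 0.55 in the same direction, and the part of root or hypocotyl tissue in these readings was not tested. Of the 3 root markers listed, PYK10 was the only 1 measured.

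Other members belong to varied families, some of them of signalling and protein handling. AT1G10850, a leucine-rich repeat receptor-like kinase, read 262 against 462 (0.78). AT4G26400, a RING-type ubiquitin ligase candidate, read 709 against 1093 (0.61). AT1G10580, of the WD40 repeat family, is given no such role here and read 314 against 512 (0.68). AT5G05750, with the DnaJ domain of HSP70 partners, read 284 against 486 (0.74). The keyword list for heat shock and chaperones had 5 probe sets past the filter, of which 0 were higher in the mutant and 2 at least 1.5-fold lower. Of all 4146 nuclear probe sets past the filter, 57.5% read higher, 66 were 1.5- to 2-fold lower and 53 at least 2-fold lower. A list of 5 is too small to read as a result on chaperones. AT5G05750 carries no name in the annotation and so was not on that list.

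A few more members had bright signal or large differences. AT3G61490, of the pectin lyase-like family, read 353 against 635 (0.82). AT2G41250, of the haloacid dehalogenase family of phosphatases, read 1648 against 2574 (0.64). AT3G47295 read 1345 against 2179 (0.69), AT1G35420 read 1571 against 2393 (0.60) and AT1G73920 read 1279 against 2118 (0.72). AT5G15610, also bright, read 1205 against 1952 (0.69). AT2G41250, AT3G47295, AT1G35420, AT1G73920 and AT5G15610 were all among the 12 members with the brightest signal.

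The members not yet described carry a locus only. AT4G35720 read 381 against 701 (0.85), AT1G26920 read 249 against 455 (0.83) and AT5G56100 read 439.6 against 778 (0.80). AT5G17780 read 301 against 534 (0.79), AT2G04790 read 341 against 600.2 (0.79) and AT5G02440 read 256 against 453 (0.79). All 6 lay in the upper part of the range. AT3G60520 read 299.9 against 524 (0.77), AT4G28240 read 434 against 739 (0.75) and AT2G35820 read 353 against 596 (0.73). The remaining members were AT5G16110, AT1G62030, AT1G64430, AT5G24570, AT5G03970, AT2G04360, AT5G08340, AT2G39580, AT1G05060, AT5G13260, AT4G32130, AT5G65660, AT1G58150, AT1G15740 and AT2G22660. Their differences ran from 0.59 for AT2G22660 to 0.72 for AT5G16110.

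The keyword lists caught few members. Of 28 lists made from words in gene names, 24 had a probe set past the filter, and 1 held a member, the transcription factor list with bHLH121. That list had 16 probe sets past the filter and a median of 0.02, and 8 of the 16 read higher in the mutant. Other lists with more than 10 probe sets past the filter, ubiquitin and proteasome (20 past the filter, median 0.13), photosynthesis (13, median 0.09), cell wall (12, median 0.03) and glycosyltransferases (12, median 0.07), held 0 members each. At a share of 1.5%, lists of this size would hold few or no members. Since 50 of the 62 have no name, an absence from these lists says little about their function.

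Position along the chromosomes was a feature that the rule did not use. Of the 61 members in the order of protein-coding genes, none (0) lay directly beside another member. Their direct neighbours included 40 measured genes, and 17 of these passed the filter. At the share of 1.5% over nuclear probe sets past the filter, so few neighbours would hold few or no members. The 66 in the lower range also had 0 neighbours within their own set, so the absence is no result. Over all 40, 24 read higher in the mutant (60%), with a median of 0.08, near the 55.3% of all 9054 nuclear probe sets taken without the filter. The filter parted them. Of the 17 past it, 15 read higher, with a median of 0.25, and of the 23 under it 9 read higher and 14 lower, with a median of -0.12. Of all 4133 nuclear genes past the filter, 57.6% read higher. The 15 include very small differences, AT1G62020 (0.003), AT5G02450 (0.01), AT4G26410 (0.02) and SP1L4 (0.03). After median centring and after loess, 11 of the 17 read higher, with medians of 0.22 in both, against 50.9% and 50.6% of all 4133 nuclear genes. The 66 probe sets in the lower range had 53 measured neighbours, of which 24 read higher (45.3%), and 14 of the 32 past the filter did, with a median of -0.05. These counts carry no test.

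Past the filter, the neighbours with the largest differences were AT2G22650 (276 against 419 (0.58)), beside AT2G22660, and AT4G32120 (342 against 498 (0.52)), beside AT4G32130. JAL33, beside JAL34, came next at 0.50. On the other side of 0, also past the filter, lay AT1G75810 (816 against 718 (-0.18)), beside the thaumatin family gene AT1G75800, and AT1G10585 (501 against 449 (-0.15)), beside AT1G10580. No neighbour past the filter reached 0.585. Under it the differences were wider, from -2.23 for AT1G57630, beside AT1G57620, to 0.74 for M17, beside AT2G41250.

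**Figure D4:**
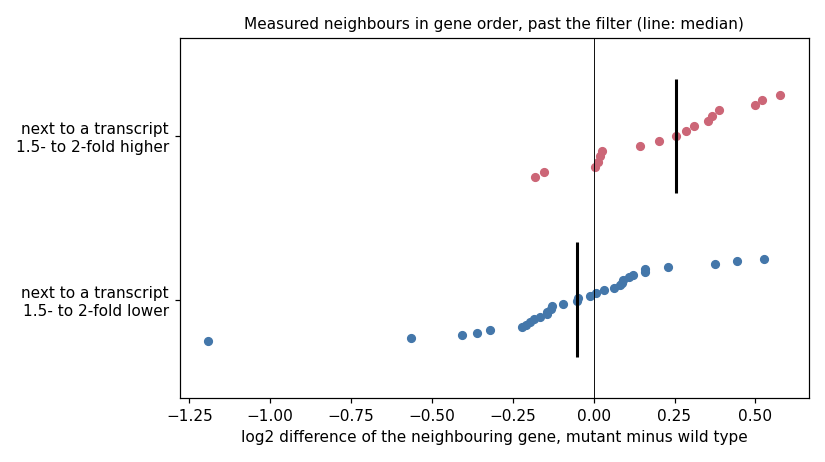
Mutant minus wild-type difference (log2) of measured genes past the filter that lie directly beside one of the 62 members (red, 17 genes) or beside one of the 66 transcripts 1.5- to 2-fold lower (blue, 32 genes), with a black line at each median. The 23 red-set neighbours under the filter, median -0.12, are not drawn. The red points have a median of 0.25 and run from -0.18 to 0.58, and the blue points have a median of -0.05 and run from -1.19 to 0.53.

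The place of the 62 in the range depended on the scaling and the pseudocount. Their direction did not bear on this, since differences of 0.585 or more lie far above the shifts these settings make. In all 5 settings, loess, quantile normalization, median centring and pseudocounts of 1 and 64, 39 of the 62 stayed between 0.585 and 1, and the other 23 lay under the lower edge in at least 1. The lowest value reached was 0.53, for AT1G58150, and the highest 0.93, for AT3G15310. ATRER1C1, NOB1, AT1G47400, UPB1, ACLA-2, DIM1A and JAL34 were among the 39. BIM1, bHLH121, TRXF2, FOLB2, LSMT-L and AT1G57620 were not.

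**Figure D5:**
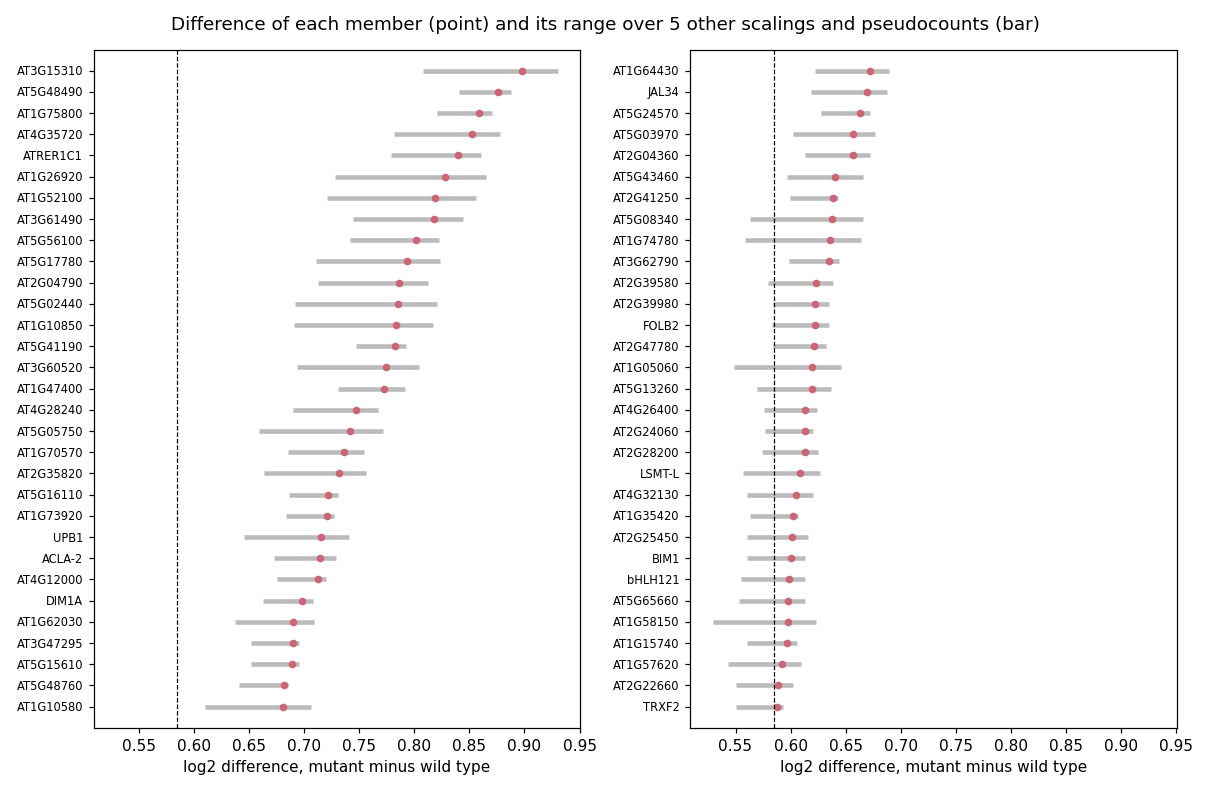
Mutant minus wild-type difference (log2) of each of the 62 transcripts as reported (point) and its range over loess, quantile normalization, median centring and pseudocounts of 1 and 64 (bar), with a dashed line at the lower edge of 0.585. Bars are longest for dim transcripts such as AT1G26920 (0.73 to 0.87), and 23 bars cross the dashed line.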

How the data were processed

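Each array's deposited column holds 1 linear intensity per probe set without a detection call. How the authors summarized, background-corrected and scaled these intensities was not given in the sources used here. Per the labels' protocols, 100 ng of total RNA entered a 3'IVT labelling. Gene names came from the platform annotation and, by Entrez number, from the TAIR10.1 gene table. All 62 members matched. Names are single for 9139 probe sets, several for 340 and absent for 7062.

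The values were used without rescaling, as log2(intensity + 16), with Python 3.11.15, pandas 2.3.3, numpy 2.4.6 and, for loess, statsmodels 0.14.6. A difference on that scale understates the change of dim probe sets, and ratios given as folds use the intensities alone. In brackets, the log2 difference follows the wild-type and mutant intensities. Levels of different genes are not comparable, since each probe set has its own response. The procedure was tested on simulated data.

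The members, lists and families were chosen with earlier results of these data known. By the rule for named genes, values are given for the 20 largest differences, the 12 brightest members, members with a name and members of keyword lists. Other values were chosen after they were seen. Promoter motifs were planned and are not analysed here. With 2 arrays, their number sets the precision. Roles of loci without a symbol are general knowledge of the family, not taken from the annotation, and the grouping of such loci by role in the text rests on them.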

Additional observations from a re-analysis of the deposited data

How the results depend on the processing

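No paired analysis was possible because replicate 1 is the sole array of either genotype, and no replicate could be left out. The number of nuclear genes in the range was 62 as reported, and 48 after median centring, 61 after quantile normalization, 45 after loess, 72 with a pseudocount of 1, 45 with a pseudocount of 64 and 62 both without probe sets ending in _s_at or _x_at and with probe sets of a gene averaged. It moved by over 1.5 times where the filter was altered, to 331 without the filter and 22 with it at percentile 75, which alters by construction how many are counted. Of the 62 members, 47 stayed in the range after median centring, 61 after quantile normalization, 44 after loess, 62 with a pseudocount of 1, 43 with a pseudocount of 64 and 22 with the filter at percentile 75, since 40 fell under that filter. Those that left under the scalings and the pseudocount of 64 all had log2 differences under the lower edge of 0.585. A pseudocount does not alter the ratio of deposited intensities, which was 1.51 or more for every member. No sign of a member could turn, since the rule admits only differences of at least 0.585. The medians of the 24 keyword lists past the filter were each compared under several settings. In 158 such comparisons the median stayed within the SD of 0.20 between probe sets of a gene, and in 7 it moved by more. In 15 comparisons it turned sign. On the lower side, the count of 66 was 77 after median centring and after loess. Without detection calls, the background under the dim members is unknown.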

Other observations

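Besides the 62 nuclear members, 57 probe sets lay in the same range of differences past the filter. Of these, 54 have no gene name here, and their differences ran from 0.59 to 0.98 with a median of 0.68. A further 2 name several genes each, AT2G28230 with AT2G28020 (669.9 in wild-type and 1248 in mutant leaves, 0.88) and AT1G07170 with AT2G30000 (732 against 1156, 0.65). The last is ccsA, a plastid-encoded gene for the assembly of c-type cytochromes, which read 479 against 743 (0.62) and falls outside the rule because it is not nuclear.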
